A study of Mus musculus with 8 samples.

Results

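Siglecs are cell-surface lectins that read sialic acid, the sugar that caps most glycans on vertebrate cells. The 6 Siglec genes described here, Siglech, Siglec1, Siglece, Siglecg, Cd33 and Cd22, were chosen by name from the 23413 genes of a mouse RNA-seq table, and all 6 were measured and passed the filter on low values. Inhibitory Siglecs carry tyrosine motifs in their cytoplasmic tails that recruit the phosphatases SHP-1 and SHP-2 when sialylated ligands are bound. Other Siglecs lack such motifs and either pair with the activating adaptor DAP12, encoded by Tyrobp, or act mainly in adhesion. On microglia, the macrophages of the brain parenchyma, inhibitory Siglecs are known for holding back phagocytosis of sialylated neural surfaces.

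The study compared microglia that refill the brain after depletion with wild-type microglia and with macrophages of bone-marrow origin, and its title places this within interleukin-1 signalling and microglial self-renewal. Expression was profiled in 8 bulk libraries from sorted cells. The 2 libraries of wild-type microglia are labelled with the strain DTR, while the 3 libraries of repopulating microglia and the 3 of bone-marrow macrophages are labelled DTRmg, so that strain and group cannot be told apart in any comparison with wild-type microglia. One treatment text stands on all 8 samples: tamoxifen was given subcutaneously at 2 mg, on day 12 and again on day 14 after birth, and microglia were depleted with 500 ng diphtheria toxin, given 3 times into the peritoneum. The labels do not say which groups received the toxin, how the DTRmg allele is driven, or how old the mice were at sorting. They also do not say whether replicates are separate animals, so p-values measure the spread between these libraries, which may be technical.

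Reads counted in genes, recovered from the values, ran from 5918944 to 12476427 per library. Values are normalised counts, scaled by the authors with a single size factor for each library, and are comparable between libraries but not between genes unless given per kilobase (kb) of transcript. In bulk RNA, fewer cells of a type and less RNA per cell cannot be told apart. All 12 microglia markers were called lower in bone-marrow macrophages than in wild-type microglia by limma, and 11 of them higher in repopulating microglia than in bone-marrow macrophages. Of the 12, 6 were also called lower in repopulating than in wild-type microglia (P2ry12, Fcrls, Gpr34, Slc2a5, P2ry13 and Cx3cr1). Cx3cr1, the fractalkine receptor, overlapped between repopulating microglia (19166 to 23758) and bone-marrow macrophages (18454 to 21977), below 63892 and 68599 in wild-type microglia. Sall1, a transcription factor of microglial identity, lay at 3180 and 4056 in wild-type microglia, at 1864 to 6101 in repopulating microglia and at 9.55 to 35.8 in bone-marrow macrophages. Tmem119, a surface marker of microglia, was present at 9461 to 11341 in the bone-marrow libraries as well. Neutrophil transcripts differed between groups, with 9 markers summing to 25497 and 27874 in wild-type microglia, 1593 to 3003 in repopulating microglia and 786 to 1303 in bone-marrow macrophages. The third repopulating library stood apart from the first and second, with a chi-square per degree of freedom of 58.2 and 61.2 against them. The first and second gave 11.1 between them. The 2 wild-type libraries gave 24.25, above that value, and pairs of bone-marrow libraries gave 7.05 to 8.62.

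Differences below are on the log2(normalised count + 1) scale with their standard error, from 1 limma model over all 8 libraries and 11415 genes, and a gene was called at a Benjamini-Hochberg adjusted p under 0.05. Of the 6 members, 1 was called between repopulating and wild-type microglia, as higher, where 8.61% of all tested genes were called (4.86% higher and 3.75% lower). Between bone-marrow macrophages and wild-type microglia 3 members were called, 1 higher and 2 lower, against 43.5% of all genes (21.3% higher and 22.2% lower). Between repopulating microglia and bone-marrow macrophages 4 were called, 3 higher and 1 lower, against 30.9% of all genes (16% higher and 14.9% lower). Groups did not overlap for 3, 4 and 4 members in these comparisons, against 40.4%, 75.8% and 46% of all tested genes. The median difference of the members was 0.19, -0.26 and 0.53, beside -0.02, -0.01 and 0.00 over all tested genes. These shares of all tested genes also stand as the background for every list of genes counted in this report. The 3 comparisons share libraries and are not independent.

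**Figure D1:**
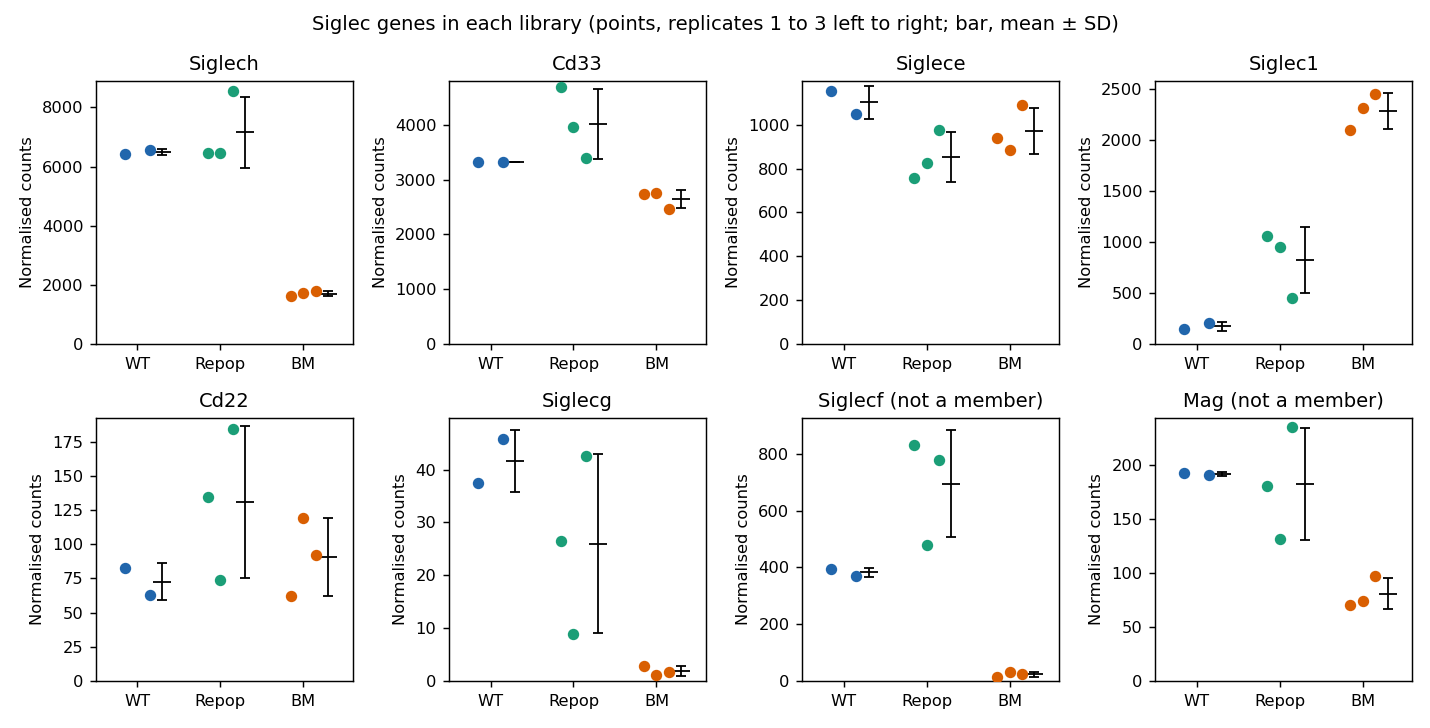
Normalised counts of the 6 members and of Siglecf and Mag in each library, with WT for wild-type microglia, Repop for repopulating microglia and BM for bone-marrow macrophages. Points are libraries in replicate order and bars give the mean ± SD (n = 2, 3 and 3). Siglec1 rises from 144 and 208 in wild-type microglia to 2100 to 2449 in bone-marrow macrophages, while Siglech lies between 6418 and 8544 in the microglial libraries.

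Siglech encodes a DAP12-coupled Siglec known from microglia and plasmacytoid dendritic cells, and it was far higher in microglia than in bone-marrow macrophages. Its normalised counts were 6418 and 6570 in wild-type microglia, 6458, 6453 and 8544 in repopulating microglia, and 1624, 1728 and 1781 in bone-marrow macrophages. The microglial groups overlapped, with the third repopulating library above all others, and every bone-marrow library lay below every microglial one. Repopulating microglia differed from wild-type microglia by 0.13 ± 0.15 (limma adjusted p = 0.632), with a 95% interval from -0.22 to 0.48. Quantile normalisation turned this difference to -0.16, and leaving out the third repopulating library brought it to -0.01. Bone-marrow macrophages were 3.80-fold lower than wild-type microglia (log2 difference -1.92 ± 0.15, limma adjusted p = 4.34e-05). Repopulating microglia were 4.14-fold higher than bone-marrow macrophages (2.05 ± 0.14, limma adjusted p = 2.84e-05).

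Plasmacytoid dendritic cell transcripts were followed because these cells also carry Siglech. The 12 markers summed to 10654 and 10962 in wild-type microglia, 13124 to 17019 in repopulating microglia and 12301 to 13938 in bone-marrow macrophages, most of it from Pld4, Bst2 and, in bone-marrow macrophages, Clec12a. Of 8 tested, 2 were called higher in repopulating than in wild-type microglia (Bst2 and Il3ra), 4 higher and 2 lower in bone-marrow macrophages than in wild-type microglia, and 3 higher and 3 lower in repopulating microglia than in bone-marrow macrophages. Klk1 was at 0 in every microglial library, Cd209d was at 0 in every repopulating and bone-marrow library, and Ccr9, which guides these cells to the gut, did not exceed 5.34. Their part in the Siglech levels was not tested. Of the genes with a mean of at least 100 normalised counts, those most like Siglech across the 8 libraries were Tal1, Tcn2 and Neurl1a. Their root-mean-square (RMS) differences from Siglech in centred log2 level were 0.09, 0.12 and 0.15. Tal1, a haematopoietic transcription factor, lay at 277 and 325 in wild-type microglia, 260 to 377 in repopulating microglia and 69.9 to 71.4 in bone-marrow macrophages.

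Siglec1 encodes sialoadhesin, a long adhesion receptor of macrophages that lacks inhibitory motifs and is a known interferon-induced gene. It was the only member called in all 3 comparisons, and the only one called lower in repopulating microglia than in bone-marrow macrophages in this fit. Wild-type microglia held 144 and 208 normalised counts, repopulating microglia 1061, 950 and 456, and bone-marrow macrophages 2100, 2310 and 2449. No groups overlapped: repopulating microglia stood between the other groups, with the third library lowest. The rise over wild-type microglia was 4.43-fold (2.15 ± 0.33, limma adjusted p = 0.0092). That call ended without the first wild-type library (1.88, limma adjusted p = 0.114) and when the fit used only the 2 groups compared (2.15, limma adjusted p = 0.0741). Bone-marrow macrophages exceeded wild-type microglia 13.1-fold (3.71 ± 0.33, limma adjusted p = 7.45e-05). Repopulating microglia were 2.95-fold below bone-marrow macrophages (-1.56 ± 0.30, limma adjusted p = 0.00446).

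Markers of border-associated macrophages, which line the meninges and vessels and carry Siglec1, had summed levels in the same order of groups. Their 10 genes, none at 0 in any group, summed to 2857 and 3386 in wild-type microglia, 5026, 7610 and 4481 in repopulating microglia, and 18618 to 22340 in bone-marrow macrophages. Most of each sum came from Stab1, Mrc1 and Cd36. By limma 1 of the 10 was called higher (Stab1) and 1 lower (F13a1) in repopulating than in wild-type microglia, 5 higher and none lower in bone-marrow macrophages than in wild-type microglia, and 8 lower and none higher in repopulating microglia than in bone-marrow macrophages. F13a1 went against the sum, at 343 and 465 in wild-type and 92.1 to 149 in repopulating microglia. Mrc1, the mannose receptor, spanned 231 to 408 in wild-type and 196 to 654 in repopulating microglia and 3645 to 4909 in bone-marrow macrophages, while Lyve1, a hyaluronan receptor, stayed at or below 44.9 in all libraries. Their part in the Siglec1 result was not tested.

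Type I interferon response genes were followed because interferon is known to induce Siglec1. Of 30 tested, 9 rose and none was called lower between repopulating and wild-type microglia by limma. Among all tested genes, 4.86% were called higher and 3.75% lower. At an unadjusted limma p under 0.05 the list gave 15 higher and 0 lower, while edgeR called 9 and 0 and DESeq2 15 and 0. The list median was 0.84 beside -0.02 over all genes. The count of higher genes fell to 1 when either wild-type library was left out and reached 25 without the third repopulating library. Their summed level was 14931 and 12207 in wild-type microglia, 32761, 22798 and 17135 in repopulating microglia, and 13982, 15447 and 16579 in bone-marrow macrophages. Siglec1 and this sum were ordered alike over the repopulating libraries, the first highest and the third lowest. Among the genes called higher, Bst2 kept this order (4133, 2553 and 1996). Stat2 (493, 373 and 601) and Parp14 (1006, 584 and 1144) were instead highest in the third library. In bone-marrow macrophages, where Siglec1 was highest, the interferon sum lay below every repopulating library, and 5 of the 30 genes were called higher and 5 lower than in wild-type microglia (4 to 8 higher and 0 to 10 lower when single libraries were left out). Eif2ak2, the antiviral kinase PKR, behaved differently from that sum. It lay at 91.9 and 104 in wild-type microglia, 342, 276 and 448 in repopulating microglia, and 405 to 423 in bone-marrow macrophages. The part of interferon response in the Siglec1 result was not tested.

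**Figure D2:**
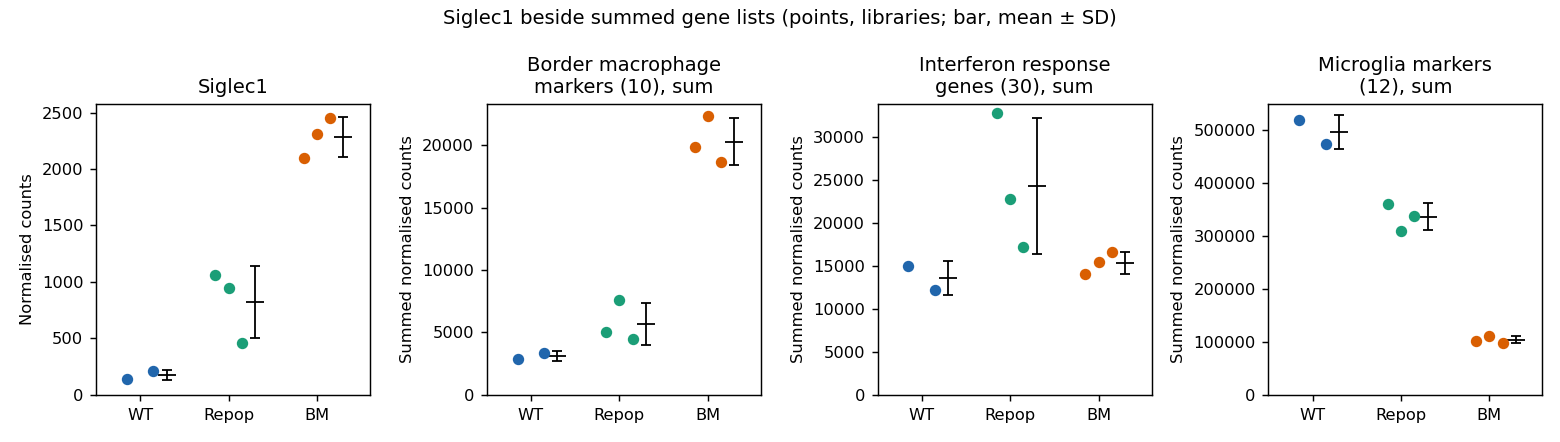
Siglec1 in normalised counts beside the summed normalised counts of border-associated macrophage markers, type I interferon response genes and microglia markers, by library (points) with mean ± SD (bars; n = 2, 3 and 3). Siglec1 and the border macrophage sum are highest in bone-marrow macrophages, whereas the interferon sum is highest in repopulating microglia, from 17135 to 32761.

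The genes most like Siglec1 in pattern were Lmna, Gdpd5 and Gas7, with RMS differences of 0.28, 0.36 and 0.36 over the 8 libraries. Lmna, which encodes the nuclear lamins A and C, lay at 20.3 and 36.6 in wild-type microglia, 62.2 to 145 in repopulating microglia and 226 to 298 in bone-marrow macrophages. As with Siglec1, its lowest repopulating value came from the third library.

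Siglece encodes an inhibitory Siglec of myeloid cells that recruits SHP-1 and SHP-2, and none of its differences was called. It lay at 1155 and 1049 in wild-type microglia, at 757, 824 and 978 in repopulating microglia, and at 938, 885 and 1088 in bone-marrow macrophages. All repopulating libraries were below both wild-type libraries, while bone-marrow libraries overlapped both groups. The difference of repopulating from wild-type microglia was -0.38 ± 0.15 (limma adjusted p = 0.165; 95% interval -0.73 to -0.03). It passed the threshold without the third repopulating library (-0.48, limma adjusted p = 0.0157) and with library weights (-0.50, limma adjusted p = 0.0134). Neutrophils also carry Siglece, and the neutrophil marker sum given above was 25497 and 27874 in wild-type against 1593 to 3003 in repopulating microglia. Their part in this difference was not tested. Bone-marrow macrophages differed from wild-type microglia by -0.19 ± 0.15 (limma adjusted p = 0.349; 95% interval -0.54 to 0.16). Repopulating microglia differed from bone-marrow macrophages by -0.19 ± 0.14 (limma adjusted p = 0.343; 95% interval -0.50 to 0.13), and only library weights brought a call (-0.29, limma adjusted p = 0.0229).

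Cd33 encodes the myeloid Siglec whose human counterpart is a known Alzheimer's disease risk gene, while the mouse protein differs from it in its tail. Its level was 3329 and 3327 in wild-type microglia, 4686, 3960 and 3396 in repopulating microglia, and 2737, 2750 and 2459 in bone-marrow macrophages. The groups did not overlap, with bone-marrow macrophages lowest and repopulating microglia highest, although the third repopulating library stood only just above wild-type microglia. Repopulating microglia exceeded bone-marrow macrophages (0.59 ± 0.14, limma adjusted p = 0.012). This call ended with quantile normalisation (0.32, limma adjusted p = 0.0634) and without the third bone-marrow library (0.54, limma adjusted p = 0.0562). The difference of 0.26 ± 0.15 between repopulating and wild-type microglia did not pass (limma adjusted p = 0.321), but passed without the third repopulating library (0.37, limma adjusted p = 0.0344) and with library weights (0.43, limma adjusted p = 0.0216). The difference of -0.33 ± 0.15 between bone-marrow macrophages and wild-type microglia did not pass either (limma adjusted p = 0.112). It passed in the fit of those 2 groups alone (limma adjusted p = 0.0119), with library weights (-0.31, limma adjusted p = 0.0225) and without the third repopulating library (limma adjusted p = 0.0169).

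Siglecg and Cd22 are the Siglecs best known from B cells, where both dampen signals from the B-cell receptor, and both were low here. Siglecg was at 37.4 and 45.8 in wild-type microglia (35 and 45 reads), 26.4, 8.86 and 42.6 in repopulating microglia (28, 6 and 37 reads), and 2.84, 1.06 and 1.76 in bone-marrow macrophages (5, 1 and 2 reads). The microglial groups overlapped, with the second repopulating library lowest, and every bone-marrow library lay below them. Bone-marrow macrophages were lower than wild-type microglia by a fitted -3.92 ± 0.62 (limma adjusted p = 0.00136). Repopulating microglia were higher than bone-marrow macrophages by 3.02 ± 0.56 (limma adjusted p = 0.00369). At so few reads the size depends on the pseudocount: with 16 in place of 1, the differences were -1.68 and 1.15, both still called. Repopulating and wild-type microglia differed by -0.90 ± 0.62 (limma adjusted p = 0.389; 95% interval -2.31 to 0.51). Of the 50-base windows of Siglecg transcripts, 4.64% also occur in transcripts of other genes, and their reads could be split differently by the counting.

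Cd22 lay at 82.3 and 63.0 in wild-type microglia, 134, 73.8 and 184 in repopulating microglia, and 61.9, 119 and 91.7 in bone-marrow macrophages. All groups overlapped. Its differences were 0.76 ± 0.40 from wild-type to repopulating microglia (limma adjusted p = 0.263), 0.28 ± 0.40 from wild-type microglia to bone-marrow macrophages (limma adjusted p = 0.59) and 0.47 ± 0.36 from bone-marrow macrophages to repopulating microglia (limma adjusted p = 0.354). The last passed with library weights alone (0.68, limma adjusted p = 0.0474). The 95% intervals of these differences reached 1.66, 1.19 and 1.28, so that rises of more than 2-fold are within them. Cd22 shares 479 exonic bases with the antisense gene Gm29439. The kit does not mark strand, so reads of the pair cannot be told apart, and 7.84% of the windows of Cd22 transcripts occur in other genes.

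B-cell transcripts are given beside both genes. The 12 markers summed to 337 and 366 in wild-type microglia, 70.8 to 192 in repopulating microglia and 79.0 to 146 in bone-marrow macrophages, and most of each microglial sum was Cd79b, a chain of the B-cell receptor (288 and 329 in wild-type microglia). Its partner chain Cd79a went the other way, at 5.34 and 2.03 in wild-type microglia, 7.38 to 17.3 in repopulating microglia and 10.8 to 20.2 in bone-marrow macrophages. Of 4 markers tested, these were the only calls, Cd79a higher and Cd79b lower in bone-marrow macrophages than in wild-type microglia. Pax5, a transcription factor that defines B cells, was near 0 and did not exceed 1.70 in any library. Blk, Ebf1 and Vpreb3 were at 0 in wild-type microglia. Their part in the Siglecg and Cd22 levels was not tested. Genes most like Siglecg in pattern were Snn, the sialyltransferase gene St3gal5 and Tspan7, with RMS differences of 0.41, 0.43 and 0.47. St3gal5 makes the ganglioside GM3 and lay at 1853 and 1590 in wild-type microglia, 1350, 891 and 1572 in repopulating microglia, and 163, 126 and 157 in bone-marrow macrophages. Like Siglecg, it was lowest among the repopulating libraries in the second.

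**Figure D3:**
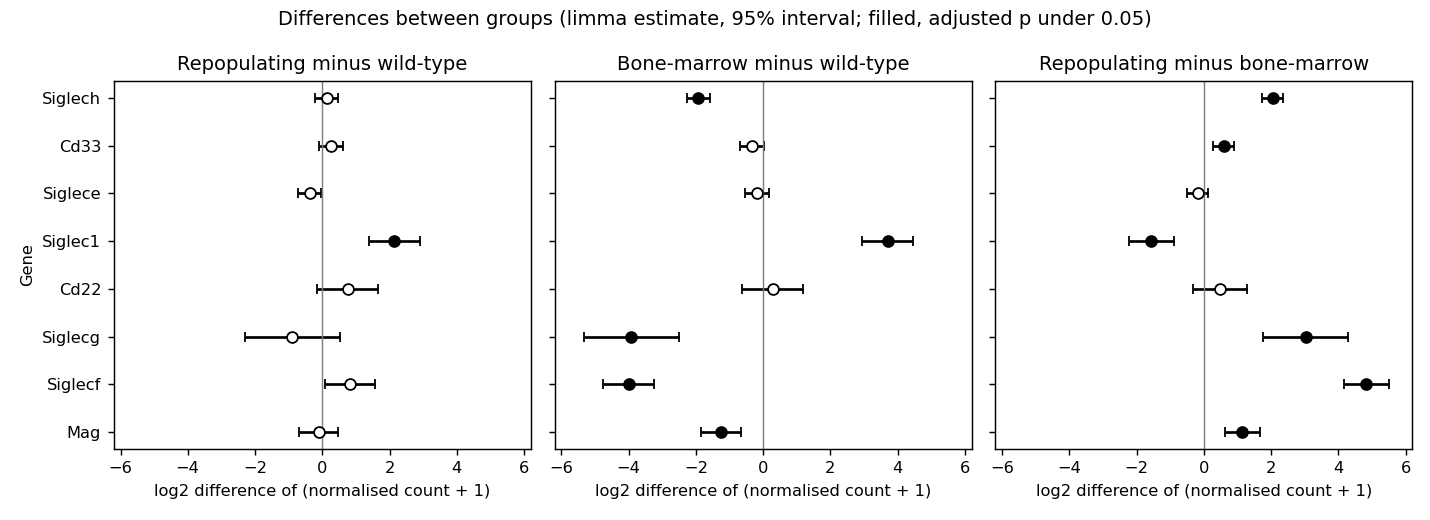
Differences between groups in log2(normalised count + 1) for the members and for Siglecf and Mag (points, limma estimates; bars, 95% intervals; filled points, adjusted p under 0.05). Siglec1 alone is filled in the comparison of repopulating with wild-type microglia. Bone-marrow macrophages are the first group of the difference in the middle panel and the second in the right panel. Siglec1 is positive in the middle and negative in the right panel, opposite to Siglech and Siglecg.

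Among the other Siglec genes of the table, Siglecf, listed under its older name Siglec5, was also far lower in bone-marrow macrophages than in microglia. RefSeq gives that older name to both Siglecf and Siglece, but Siglece has its own entry here. Siglecf, an inhibitory Siglec known from eosinophils, lay at 394 and 371 in wild-type microglia, 829, 480 and 776 in repopulating microglia, and 15.3, 32.9 and 23.8 in bone-marrow macrophages. No groups overlapped, with repopulating microglia highest. It was 28.3-fold higher in repopulating microglia than in bone-marrow macrophages (4.82 ± 0.29, limma adjusted p = 1.98e-05) and lower in bone-marrow macrophages than in wild-type microglia (-4.00 ± 0.33, limma adjusted p = 4.88e-05). The difference of 0.82 ± 0.33 between repopulating and wild-type microglia was not called (limma adjusted p = 0.157), though DESeq2 on reads recovered from the values called it (0.86, adjusted p = 0.0483). The 7 eosinophil markers summed to 1182 and 290 in wild-type and 303, 195 and 54.1 in repopulating microglia, which overlapped, and to 15.0 to 27.6 in bone-marrow macrophages. Of 6 tested, 2 were called lower in repopulating and all 6 lower in bone-marrow than in wild-type libraries, and 3 higher in repopulating than in bone-marrow libraries. Their part in the Siglecf levels was not tested.

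Mag, the Siglec of myelin-forming glia, lay at 192 and 190 in wild-type microglia, 180, 131 and 235 in repopulating microglia, and 70.5, 74.2 and 97.0 in bone-marrow macrophages. Bone-marrow macrophages were lower than both microglial groups, which overlapped (-1.25 ± 0.26 against wild-type microglia, limma adjusted p = 0.00494; repopulating microglia 2.21-fold higher, limma adjusted p = 0.00587). Oligodendrocyte markers did not follow it: 7 genes summed to 1083 and 1218, to 1196 to 1381 and to 1056 to 1179 in the 3 groups, with Opalin at 0 in all libraries and Mobp at 0 in wild-type microglia. Siglec15 was too low to test, with 0 reads in both wild-type libraries, 5 or 6 in each repopulating library and 2 to 6 in the bone-marrow libraries.

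Per kb of the principal transcript, Siglech was the most abundant Siglec in all groups, at 3038 ± 50.2 normalised counts per kb in wild-type microglia (SD, n = 2), 3345 ± 564 in repopulating microglia (n = 3) and 800 ± 37.4 in bone-marrow macrophages (n = 3). Siglece and Cd33 came next. In wild-type microglia they were level, at 596 ± 40.4 and 581 ± 0.33 per kb, and in bone-marrow macrophages, at 525 ± 57.1 and 463 ± 28.7, the libraries also touched (478 to 589 and 429 to 480). In repopulating microglia Cd33 stood above Siglece, at 701 ± 113 against 461 ± 61.2 per kb, without overlap. This order holds for the principal transcripts: over the union of all exons, Cd33 was at 428 per kb in wild-type microglia, 517 in repopulating microglia and 341 in bone-marrow macrophages, with Siglece unchanged. Over the same union Siglech was at 506 per kb in bone-marrow macrophages, beside 525 for Siglece, so the lead of Siglech holds in both microglial groups but not in bone-marrow macrophages.

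Siglec1 changed its place in the order, given here for the principal transcripts. It was at 27.6 ± 7.11 per kb in wild-type microglia, below Siglecf (147 ± 6.28) and Mag (78.6 ± 0.64), and above Cd22 (15.9 to 20.7 per kb) and Siglecg (14.6 to 17.8 per kb) without overlap. In repopulating microglia Siglec1 reached 129 ± 50.4 per kb and overlapped Mag (54.0 to 96.5). In bone-marrow macrophages it stood next after Cd33, at 358 ± 27.5 per kb, apart from Cd33 above it and from Mag (33.1 ± 5.90) below. Over the union of exons Siglec1 and Cd33 lay closer in bone-marrow macrophages, with means of 320 and 341 per kb. Cd22 and Siglecg overlapped in wild-type microglia but not in the other groups, where Cd22 was the higher. Over the union of exons Cd22 had the higher mean in wild-type microglia too, at 14.4 against 8.65 per kb.

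As shares of the summed per-kb level of the 9 Siglec genes, Siglech took 66.8% and 68.2% in wild-type microglia, 62.2%, 66.0% and 70.7% in repopulating microglia, and 35.7%, 36.7% and 36.0% in bone-marrow macrophages. Siglec1 took 0.50% and 0.72%, then 3.42%, 3.26% and 1.26%, then 15.5%, 16.4% and 16.6% in the same libraries. The sum itself was 4502 ± 8.49 per kb in wild-type microglia, 5026 ± 561 in repopulating microglia and 2214 ± 93.2 in bone-marrow macrophages. Bone-marrow macrophages had the lower sum, spread more evenly over Siglech, Siglece, Cd33 and Siglec1. The microglial groups overlapped in the Siglech share but not in the sum, where repopulating libraries ran from 4570 to 5652 per kb and wild-type libraries from 4496 to 4508. Over the union of exons the mean Siglech share was 60.4%, 59.5% and 29.1% in the 3 groups.

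**Figure D4:**
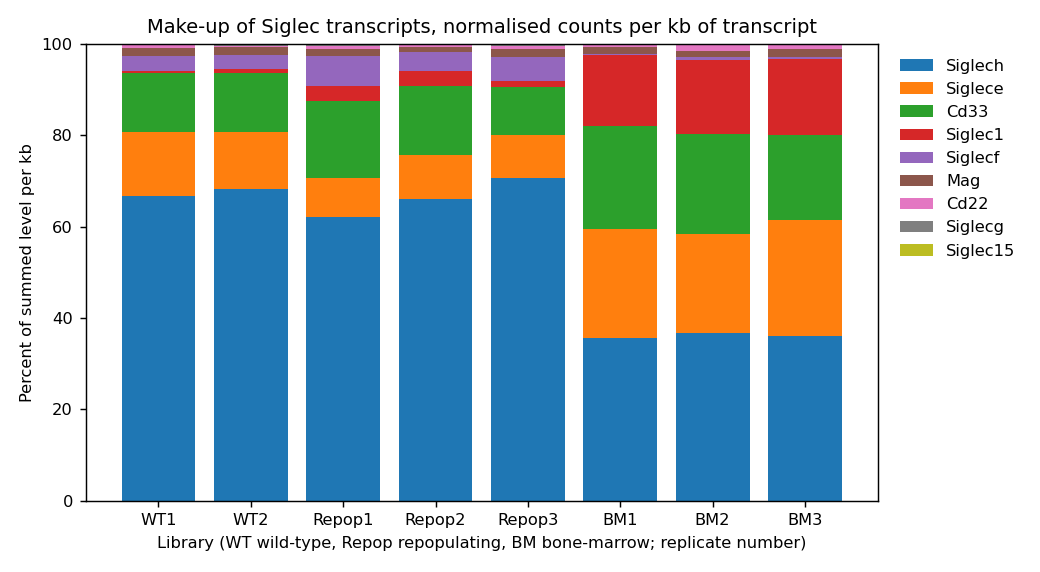
Share of each Siglec gene in the summed level per kb of transcript, as percent, 1 stacked bar per library. Siglech fills 62.2% to 70.7% of the microglial bars and 35.7% to 36.7% of the bone-marrow bars, where Siglece, Cd33 and Siglec1 are wider.

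Of the 6 members, 5 lie on chromosome 7, with Siglec1 alone on chromosome 2 (131069220 to 131086765, minus strand; GRCm38). Siglecf (43351341 to 43359531, plus), Siglecg (43408204 to 43418358, plus), Cd33 (43524216 to 43544428, minus) and Siglece (43651070 to 43660161, minus) lie within 309 kb of each other. Cd22 (30865402 to 30880342, minus) and Mag (30899176 to 30914873, minus) form a pair within 49.5 kb, and Siglech (55768178 to 55778925, plus) is 12108 kb from Siglece. Neighbours differed by unequal amounts: within the 309 kb, Siglecf and Siglecg were far lower in bone-marrow macrophages than in microglia, Cd33 was lower than in repopulating microglia by a log2 difference of 0.59, and Siglece was not called. The pair Cd22 and Mag differed likewise, with Mag lower in bone-marrow macrophages and Cd22 not called.

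Promoters, windows of 300 bases around the RefSeq start, are shown for Cd33 and Siglecf, whose promoters share letters. On the chromosome, Cd33 and Siglecf are separated by Siglecg. Both genes were highest in repopulating microglia and lowest in bone-marrow macrophages, with differences of unequal size (0.59 for Cd33 and 4.82 for Siglecf between these groups). No other pair of Siglec promoters read shared a run of 12 bases or more. Capitals mark the runs they share, in RefSeq GRCm38.p6, Cd33 at chr7:43533122-43533421 on the minus strand and Siglecf at chr7:43351091-43351390 on the plus strand.
Cd33: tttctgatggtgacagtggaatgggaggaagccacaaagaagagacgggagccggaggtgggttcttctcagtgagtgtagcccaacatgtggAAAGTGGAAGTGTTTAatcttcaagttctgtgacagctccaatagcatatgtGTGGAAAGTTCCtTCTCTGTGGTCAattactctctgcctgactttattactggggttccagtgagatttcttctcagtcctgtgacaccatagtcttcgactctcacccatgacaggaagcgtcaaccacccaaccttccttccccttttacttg
Siglecf: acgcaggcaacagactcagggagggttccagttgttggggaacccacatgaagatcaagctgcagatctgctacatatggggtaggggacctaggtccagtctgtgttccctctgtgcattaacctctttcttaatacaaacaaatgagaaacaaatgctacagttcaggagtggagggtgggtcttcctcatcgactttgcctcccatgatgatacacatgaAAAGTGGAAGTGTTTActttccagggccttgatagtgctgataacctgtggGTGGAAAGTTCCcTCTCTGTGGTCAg
The longest run, 16 bases, lies at -157 to -142 from the Cd33 start and at -27 to -12 from the Siglecf start, and is in 2 of 32817 promoters. The second, 12 bases, is also in 2, and the third, 12 bases, is in 9. The runs come in the same order in both promoters, nearer to or past the start in Siglecf.

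Siglech and Siglecg are shown as the members called lower in bone-marrow macrophages than in both microglial groups. Capitals mark GAGGAA, the core letters of sites for PU.1, the ETS factor of myeloid cells, which reads TTCCTC on the printed strand here. They lie at chr7:55767934-55768233 (Siglech) and chr7:43407989-43408288 (Siglecg, first of 2 entries), both on the plus strand, from RefSeq GRCm38.p6.
Siglech: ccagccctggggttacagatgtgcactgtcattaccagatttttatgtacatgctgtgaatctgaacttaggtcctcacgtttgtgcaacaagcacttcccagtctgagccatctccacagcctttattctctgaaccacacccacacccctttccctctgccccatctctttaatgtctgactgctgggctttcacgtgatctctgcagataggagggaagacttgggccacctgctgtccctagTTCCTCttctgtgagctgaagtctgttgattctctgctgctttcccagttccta
Siglecg: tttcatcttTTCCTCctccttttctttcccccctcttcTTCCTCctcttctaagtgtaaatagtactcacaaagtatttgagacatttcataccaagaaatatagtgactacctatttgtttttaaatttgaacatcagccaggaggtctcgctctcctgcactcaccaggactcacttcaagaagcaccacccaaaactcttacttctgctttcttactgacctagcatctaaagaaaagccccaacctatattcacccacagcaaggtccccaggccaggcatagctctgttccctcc
Searched on both strands, GAGGAA is in 28.3% of the 32817 promoters of this length. It occurs once in Siglech, across the start, 2 times in the first Siglecg entry, and 3 times in Siglece. It is found once each in Cd33, Siglecf and every Mag entry, and not in the second Siglecg entry or the Cd22 window. The letters of the interferon-stimulated response element (in 3.43% of promoters), of the joint ETS and IRF element (2.72%) and of the MEF2 site (3.69%), also searched on both strands, were in none of the Siglec promoters read. Siglec1 and Siglec15 have no entry in the promoter table used. A match describes these letters only.

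Siglec signalling partners were followed as a list of 14 tested genes. Between repopulating and wild-type microglia 1 rose and 1 fell, between bone-marrow macrophages and wild-type microglia 2 rose and 4 fell, and between repopulating microglia and bone-marrow macrophages 5 rose and none fell by limma (0 lower also at an unadjusted p under 0.05 and by edgeR and DESeq2). Of all tested genes, 8.61%, 43.5% and 30.9% were called in these comparisons. The list medians were 0.24, -0.08 and 0.13, beside the medians of all genes given above. Leaving out single libraries moved the first of these counts to 0 to 4 higher and 0 to 1 lower, the second to 0 to 3 higher and 3 to 4 lower, and the last to 3 to 5 higher and 0 to 1 lower, the 1 without the third repopulating library. Fyn, a Src-family kinase, was higher in repopulating microglia (332, 273 and 373) than in wild-type microglia (153 and 181) and bone-marrow macrophages (124, 112 and 94.4). Its difference from wild-type microglia was 0.95 ± 0.20 (limma adjusted p = 0.023). That call ended when either wild-type library was left out (limma adjusted p = 0.206 without the first and 0.0994 without the second), without the first repopulating library (0.0683) and without the second bone-marrow library (0.0507). Fgr, another such kinase, lay at 415 and 329 in wild-type microglia, 216, 205 and 184 in repopulating microglia, and 88.1, 91.2 and 95.2 in bone-marrow macrophages. It was lower in bone-marrow macrophages than in wild-type microglia (-2.00 ± 0.17, limma adjusted p = 5.09e-05).

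Socs3, a cytokine signalling inhibitor reported to bind Siglec tails, followed Siglech in direction. It lay at 3551 and 3890 in wild-type microglia, 5222, 4900 and 6596 in repopulating microglia, and 434, 623 and 1042 in bone-marrow macrophages, without overlap. Bone-marrow macrophages were below wild-type microglia by -2.50 ± 0.31 (limma adjusted p = 0.000412) and repopulating microglia above bone-marrow macrophages by 3.07 ± 0.28 (limma adjusted p = 0.000101). Tyrobp and Ptpn6, picked for their role after their values were seen, encode the adaptor of Siglech and the phosphatase SHP-1. Tyrobp lay at 9372 and 7864, then 13937, 14766 and 11578, then 9093, 9211 and 10777 in the 3 groups, with repopulating microglia above all other libraries. Its difference from wild-type microglia was 0.64 ± 0.17 (limma adjusted p = 0.0501), and passed the threshold in 10 of 23 alternatives, among them the fit without the third repopulating library (0.74, limma adjusted p = 0.00145). Its difference from bone-marrow macrophages was 0.47 ± 0.15 (limma adjusted p = 0.043), a call that ended in 15 of 23 alternatives, for example at 0.21 with equal library totals (limma adjusted p = 0.206). Ptpn6 lay at 1930 and 1899, then 1865, 1839 and 3531, then 2738, 2444 and 3085, and was called in no comparison, the third repopulating library standing far above the other microglial libraries. Without that library Ptpn6 was called higher in bone-marrow macrophages than in wild-type microglia (0.52, limma adjusted p = 0.00136) and lower in repopulating microglia than in bone-marrow macrophages (-0.57, limma adjusted p = 0.00113), as it was with library weights (0.51 and -0.52, limma adjusted p = 0.00388 and 0.00187).

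Synthesis and activation of sialic acid was followed with 6 genes. Between repopulating and wild-type microglia limma called 0 (1 at an unadjusted p under 0.05; edgeR and DESeq2 0). In bone-marrow macrophages 2 were higher and 2 lower than in wild-type microglia, and against repopulating microglia the same 2, Cmah and Nans, were the higher ones. The 2 lower genes, Cmas and Slc35a1, both lost their call when either wild-type library was left out, and 0 to 2 genes were called higher in repopulating microglia than in bone-marrow macrophages when single libraries were left out, with 2 without the third repopulating library. The medians were -0.02, -0.04 and 0.02. Cmah encodes the hydroxylase that makes Neu5Gc, the sialic acid form that mouse Cd22 prefers. It lay at 18.2 and 23.4 in wild-type microglia, 21.7, 44.3 and 17.3 in repopulating microglia, and 427, 418 and 403 in bone-marrow macrophages. Every bone-marrow library was far above every microglial one, 19.3-fold over wild-type microglia (4.27 ± 0.36, limma adjusted p = 5.25e-05). Nans, a sialic acid synthase, was at 292 and 253, then 332, 375 and 367, then 623, 617 and 677, and 2.35-fold higher in bone-marrow macrophages than in wild-type microglia (1.23 ± 0.14, limma adjusted p = 0.000214).

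Sialyltransferases, the enzymes that attach sialic acid and so make Siglec ligands, were 20 in the table, 12 of them tested. St6gal2, St6galnac1, St8sia2 and St8sia5 were at 0 in all libraries. Between repopulating and wild-type microglia 2 rose and 2 fell. Between bone-marrow macrophages and wild-type microglia 2 rose and 4 fell, and between repopulating microglia and bone-marrow macrophages 7 rose and 2 fell. The medians were -0.09, -0.26 and 0.78, and 8.61%, 43.5% and 30.9% of all tested genes were called in these comparisons. With single libraries left out, the counts ran over 1 to 3 higher and 0 to 3 lower, 1 to 4 higher and 3 to 5 lower, and 7 higher and 0 to 3 lower. St8sia1, which adds sialic acid in the linkage of the ganglioside GD3, was at 36.3 and 27.5 in wild-type microglia, 541, 422 and 267 in repopulating microglia, and 74.4, 49.8 and 68.8 in bone-marrow macrophages. Like Siglec1 it was lowest among repopulating libraries in the third, but unlike Siglec1 it was higher there than in bone-marrow macrophages (2.61 ± 0.28, limma adjusted p = 0.000236). Its difference between repopulating and wild-type microglia was 3.60 ± 0.32 (limma adjusted p = 0.000971). St8sia6 was also highest in repopulating microglia, at 39.5 and 37.6, then 151, 153 and 104, then 21.6, 19.1 and 30.0. It rose over wild-type microglia by 1.77 ± 0.28 (limma adjusted p = 0.00954), a call that ended without the first (limma adjusted p = 0.0964) or the second (0.0757) wild-type library.

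St3gal5 and St3gal6, which add sialic acid in the linkage that sialoadhesin prefers, were lowest in bone-marrow macrophages, where Siglec1 was highest. St3gal5 fell by 3.53 ± 0.24 from wild-type microglia (limma adjusted p = 2.15e-05). St3gal6 was at 2931 and 2483, then 2021, 1559 and 1655, then 652, 611 and 545, and fell by 2.16 ± 0.16 from wild-type microglia to bone-marrow macrophages (limma adjusted p = 2.75e-05). St3gal1, of the same linkage, went the other way and was called higher in bone-marrow macrophages. St3gal4 was called higher in bone-marrow macrophages (189, 190 and 188) than in repopulating microglia (137, 125 and 138). Its level was highest in wild-type microglia, at 225 and 221.

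**Figure D5:**
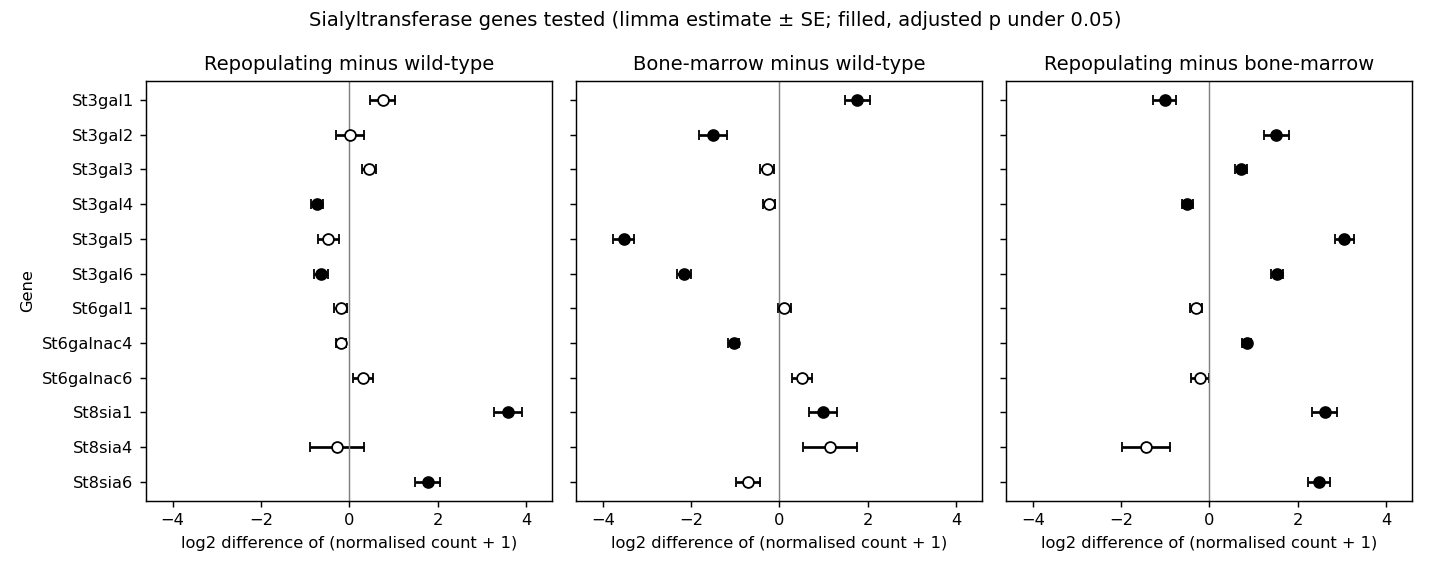
Differences between groups in log2(normalised count + 1) for the 12 sialyltransferase genes tested (points, limma estimates; bars, standard errors; filled points, adjusted p under 0.05). St8sia1 and St8sia6 are filled to the right in both panels of repopulating microglia, by 1.77 to 3.60, and St3gal5 and St3gal6 are filled to the left for bone-marrow macrophages.

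Sialidases and enzymes that modify or break down sialic acid were 8, of which 6 were tested and Neu2 and Neu4 were at 0 in all libraries. By limma 1 rose and 1 fell between repopulating and wild-type microglia. In bone-marrow macrophages 3 were lower and 0 higher than in wild-type microglia (0 higher also at an unadjusted p under 0.05 and by edgeR and DESeq2), and 4 were higher in repopulating microglia than in bone-marrow macrophages, with 0 lower by the same measures. The first of these counts ran over 0 to 1 higher and 0 to 2 lower with single libraries left out. The medians were -0.42, -0.71 and 0.52, and 8.61%, 43.5% and 30.9% of all tested genes were called in the 3 comparisons. Npl, the lyase that degrades free sialic acid, lay at 685 and 588, then 299, 320 and 284, then 120, 116 and 128, with no overlap. It was lower in bone-marrow macrophages than in wild-type microglia by -2.38 ± 0.14 (limma adjusted p = 1.64e-05). Repopulating microglia were lower than wild-type microglia by -1.07 ± 0.14 (limma adjusted p = 0.00526), a call that ended without the first wild-type library (-0.96, limma adjusted p = 0.0875).

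Carriers of Siglec ligands were 6, of which 5 were tested, with medians of -0.41, 1.07 and 0.07 in the 3 comparisons. By limma 2 rose and 2 fell between repopulating and wild-type microglia (8.61% of all tested genes called). Between bone-marrow macrophages and wild-type microglia 3 rose and 2 fell (43.5%), and between repopulating microglia and bone-marrow macrophages 1 rose and 2 fell (30.9%). Leaving out single libraries moved the first to 0 to 2 higher and 1 to 3 lower. Cd24a encodes CD24, the known ligand carrier of Siglecg. It lay at 342 and 279 in wild-type microglia, 47.2, 38.4 and 31.1 in repopulating microglia, and 30.1, 45.6 and 35.3 in bone-marrow macrophages. Both wild-type libraries were above all others, and repopulating microglia were 7.87-fold lower than wild-type microglia (-2.98 ± 0.27, limma adjusted p = 0.000971). Spn, leukosialin, a counter-receptor of sialoadhesin, lay at 180 and 110, then 23.6, 25.1 and 11.5, then 609, 501 and 582. It was lower in repopulating than in wild-type microglia by -2.82 ± 0.34 (limma adjusted p = 0.00338), which ended without the first wild-type library (-2.47, limma adjusted p = 0.0584), and highest in bone-marrow macrophages. Selplg, the selectin ligand PSGL-1, fell by 2.89 ± 0.35 from wild-type microglia to bone-marrow macrophages (limma adjusted p = 0.000363). Neutrophils carry CD24 and leukosialin, and their marker sums, given above, were higher in wild-type than in repopulating microglia, as Cd24a and Spn were. The sums were lowest in bone-marrow macrophages, where Spn was highest. The part of neutrophils in the lower Cd24a and Spn of repopulating microglia was not tested.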

How the data were processed

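The TruSeq RNA kit, version 2, was used on RNA of integrity number over 8, according to the labels' protocols. The submitters' processing notes name the build mm10 and, without roles or order, DESeq 1.14.0, HTSeq, Bowtie2 2.1.0.0 and TopHat2 2.0.10. The annotation and the strand setting are not given in the sources used. The values the authors deposited are of the unit signal: counts per gene scaled with a single size factor for each library. Whole reads were recovered by dividing by the step between low values (100% of values came out whole within 0.01 reads). Columns named for repopulating and control cells were matched to samples first, and the remaining 3 were taken as bone-marrow macrophages.

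Genes reaching 10 normalised counts in 2 or more libraries were tested on log2(value + 1) with limma 3.58.1 (R 4.3.3), with a variance trend and no covariates, two-sided, with Benjamini-Hochberg adjustment over 11415 genes, after a check on simulated data. On the recovered reads, edgeR 4.0.16 called 969, 5040 and 3568 genes and DESeq2 1.42.0 called 1625, 5222 and 3819, in the order of comparisons in the report. In all, 23 alternatives were tried. Loci are 1-based, from GENCODE vM21 on GRCm38.

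Members and lists were chosen with earlier results of these data known. The naming rule took the members and other Siglec genes always, and of each list up to 4 called genes per comparison by smallest adjusted p, or the 2 most abundant where none was called. Genes of like pattern were the 3 with the smallest RMS difference from a member whose group means span at least 1 in log2. The text gives some of them, and 1 B-cell marker is not reported here. Other marker lists summed as follows in the wild-type, repopulating and bone-marrow libraries: monocyte 5603 to 7628, 653 to 1774 and 1519 to 2291, conventional dendritic cell 794 to 838, 906 to 1343 and 1355 to 1509, T and NK cell 104 to 526, 11.8 to 29.9 and 98.8 to 138, astrocyte 1180 to 6518, 266 to 2232 and 100 to 140, neuron 32.1 to 48.8, 17.7 to 36.9 and 17.6 to 22.3, and endothelial cell 412 to 630, 78.4 to 403 and 51.1 to 70.0.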

Additional observations from a re-analysis of the deposited data

How the results depend on the processing

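The count of members called between repopulating and wild-type microglia was 1 in the reported fit, 3 with library weights and 0 with only the 2 groups compared (limma; 1 at an unadjusted p under 0.05), and ran from 0 to 3 when single libraries were left out: 0 without the first wild-type library, 3 without the third repopulating one. Among all genes this comparison gave 983 calls, 2807 with library weights, 1625 with DESeq2, 82 with only the 2 groups compared and 67 to 2969 when single libraries were left out. Between bone-marrow macrophages and wild-type microglia 4960 calls became 2821 to 6992, and between repopulating microglia and bone-marrow macrophages 3526 became 2212 to 5335, and 6409 with library weights, when the same was done. The estimate of library weights stopped short of its tolerance. The cause of these changes in counts was not tested, and the fits without a library or a group also rest on fewer libraries. Scaling libraries to equal totals moved the median of all genes to -0.13, 0.14 and -0.25, and split the calls 440 higher and 729 lower (555 and 428 reported), 3007 and 2068 (2428 and 2532) and 1169 and 2934 (1826 and 1700). TMM scaling split the last 2 comparisons 2778 and 2199, and 1589 and 1919.

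Between repopulating and wild-type microglia, differences that were not called turned sign for Siglech (-0.16 with quantile normalisation, -0.009 to 0.194 leaving out single libraries), Mag (-0.31 to 0.11) and Ptpn6 (-0.003 with library weights, -0.048 to 0.423). The turns came without the third repopulating library for Siglech and Ptpn6 and without the second for Mag.

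The labels do not say whether replicate numbers pair the samples. Correlations of same-numbered deviations from group means ran from -0.24 to 0.24. With 2 wild-type libraries these deviations mirror each other, so the correlations cannot decide whether samples are paired. With the replicate number as a block, 1, 3 and 4 members and 733, 4811 and 3564 genes were called, and Fyn lost its call between repopulating and wild-type microglia (adjusted p = 0.0542, limma). Low reads limit Siglecg, Cd22 and Siglec15, and 2 wild-type libraries limit every comparison with them.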
